A study of Rorippa islandica and Rorippa pyrenaica with 24 samples.

Results

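Of the 30646 *R. islandica* genes counted in young leaves of 2 *Rorippa* species, 42 were strongly repressed when *R. islandica* was submerged and stayed near their control level when *R. stylosa* was submerged. They were chosen by these values themselves. Transcript counts were summed per gene and scaled so that every library has the same total (CPM, the usual scale of a share of a library's counts), and the log2 ratio of submergence to control was taken between group means after adding 0.5 CPM to both. A gene was kept when this ratio was -2 or lower in *R. islandica* and within 0.5 of 0 in *R. stylosa*, each at both time points. It also needed mean control levels of at least 1 CPM in *R. stylosa*, all 8 group means under 1000 CPM, and means of submerged *R. islandica* at 48 h and 24 h that differed by less than 1 on the log2 scale. The changes under submergence are therefore a description of how the 42 genes were picked, and no test of them is used as support.

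The study set *R. islandica*, which it describes as tolerant of submergence, against *R. stylosa*, which it describes as sensitive. The 8 groups of 3 libraries were *R. islandica* submerged for 48 h and its 48 h control, *R. islandica* submerged for 24 h and its 24 h control, and the same 4 groups of *R. stylosa*. All plants were unmodified and had grown on soil for 3 to 4 weeks before the treatment, and both submerged plants and their controls in air stayed under a day and night rhythm. *R. islandica* came from seed, whereas *R. stylosa* was multiplied vegetatively, separately for each replicate. The reads of both species were assigned to the transcripts of *R. islandica*, so a level in *R. stylosa* counts only reads that resemble the *R. islandica* sequence closely enough, and a difference in level between the species cannot be told apart from a difference in how well reads match. The ratio of submergence to control within a species compares libraries that share this property.

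A leaf under water exchanges gases slowly, because oxygen and carbon dioxide diffuse far more slowly in water than in air. Ethylene is trapped in the tissue, respiration and photosynthesis become limited, and plants save carbon and energy in part by lowering the transcription of genes for growth and for other costly processes. A gene that is repressed in one species and not in a relative under the same treatment is one whose response, or whose regulation, is not shared. The deposited tables do not pair the identifiers with gene names and the study's annotation of them was not used here, so no function is given for the 42 genes, and lists of named pathway genes or leaf markers could not be read. The identifiers consist of a scaffold number and a number along it, and the tables add the orthogroup, which is a set of genes in several species that descend from a single ancestral gene, and the coding length.

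The libraries held 24127592 to 66692318 counted reads. The 48 h control replicate 1 of *R. stylosa* stood apart, with 5.12% of its counts in a single gene, against 1.41 to 2.81% in the other 23 libraries, and without it the same rule gave 44 genes, of which 40 were among the 42. Scaling matters for the *R. stylosa* condition. Over the 16481 genes that met only the conditions on levels, libraries scaled by their total gave *R. islandica* a median log2 ratio of 0.14 at 48 h and 0.06 at 24 h, and *R. stylosa* one of 0.23 at 48 h and 0.17 at 24 h. With TMM scaling, which assumes that most genes do not change, these medians lay between -0.04 and -0.00, a shift of 0.10 to 0.27. In bulk leaf RNA, fewer cells of a type and less RNA per cell cannot be told apart.

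In *R. islandica* the 42 genes fell by similar amounts at both time points. Their log2 ratios ran between -5.69 and -2.02 with a median of -2.63 at 48 h, and between -5.46 and -2.04 with a median of -2.51 at 24 h. In 28 of them the ratio was lower at 48 h and in 14 at 24 h. The mean level over the 6 submerged libraries of *R. islandica* ran between 0.0279 and 24.98 CPM with a median of 2.43 CPM, against 2.65 to 289 CPM with a median of 16.4 CPM over its 6 control libraries. For each of the 42 genes, the highest submerged library of *R. islandica* was below the lowest control library, as it was for 25.3% of all genes that met the conditions on levels. edgeR's quasi-likelihood test against a log2 fold change of 1 called 42 of 42 lower at 48 h, where it called 13.5% of all genes tested lower, and 42 of 42 at 24 h, where it called 10.5% lower. These counts use the contrasts that chose the genes. Added together, the 42 genes made up 216 ± 28.9 CPM in submerged and 1743 ± 283 CPM in control *R. islandica* at 48 h, and 219 ± 23.4 CPM in submerged and 1507 ± 144 CPM in control *R. islandica* at 24 h (SD, n = 3 each). In *R. stylosa* the same sum was 1337 ± 74.7 CPM under water and 1321 ± 48.3 CPM in controls at 48 h, and 1508 ± 177 CPM under water and 1456 ± 244 CPM in controls at 24 h (SD, n = 3 each).

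**Figure D1:**
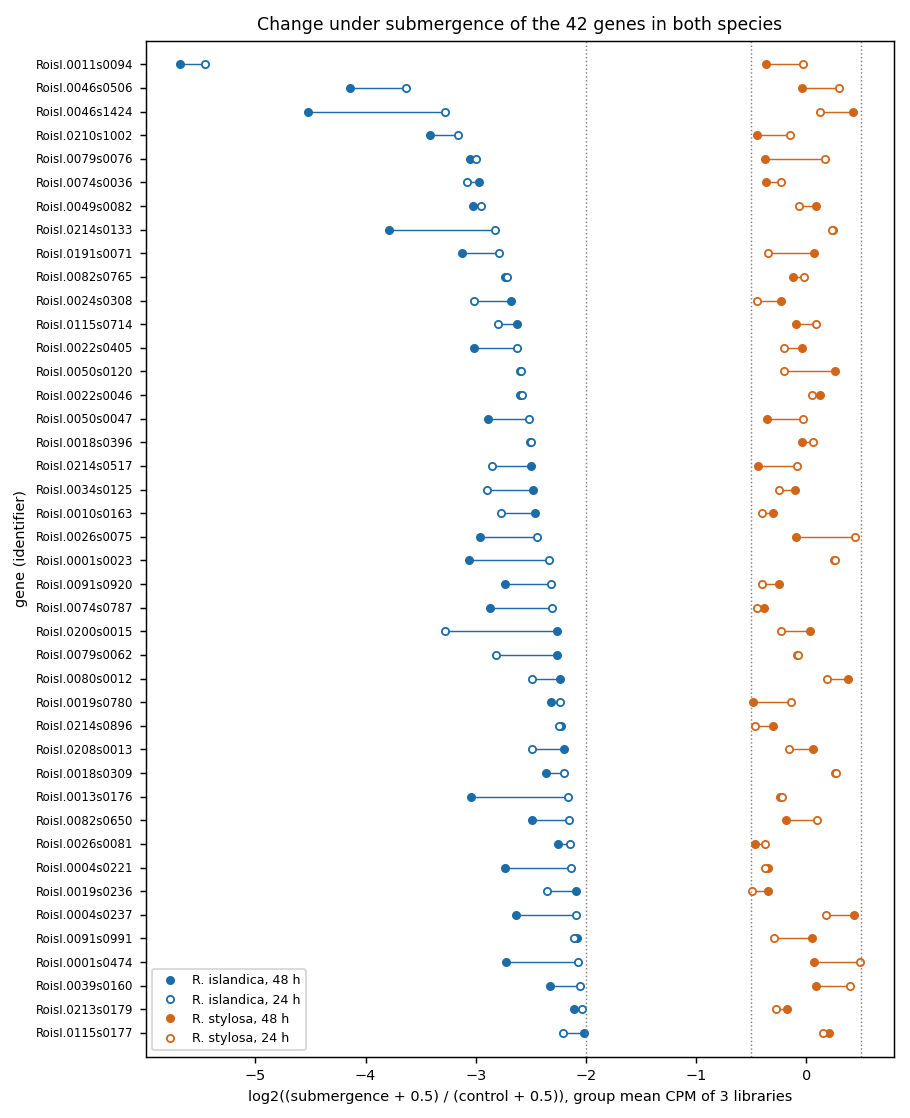
Log2 ratio of submergence to control (horizontal axis, group mean CPM plus 0.5) of each of the 42 genes (rows, ordered by the weaker of the 2 ratios in *R. islandica*), with filled points for 48 h and open points for 24 h, blue for *R. islandica* and orange for *R. stylosa*. The blue points lie at -2.02 or lower and the orange points between -0.50 and 0.49, the 2 bands that the dotted thresholds at -2, -0.5 and 0.5 set, and Roisl.0011s0094 is the only gene with both blue points below -4.

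Roisl.0011s0094 had the lowest log2 ratios with 0.5 CPM added, although without it the means of Roisl.0191s0071 differed more. Its level was 1.05, 0.384 and 1.31 CPM in submerged *R. islandica* at 48 h, against 66.7, 70.9 and 79.2 CPM in the controls, and 1.18, 0.922 and 1.47 CPM in submerged plants at 24 h, against 63.8, 79.7 and 78.6 CPM in the controls. In *R. stylosa* it was 30.9, 37.3 and 29.9 CPM under water and 47.8, 37.8 and 41.4 CPM in controls at 48 h, and 54.9, 44.6 and 36.01 CPM under water and 57.9, 34.2 and 46.04 CPM in controls at 24 h. The submerged *R. islandica* libraries were all at 1.47 CPM or lower, while every other library of either species held 29.9 CPM or more. The log2 ratios were -5.69 at 48 h and -5.46 at 24 h in *R. islandica*, and -0.37 at 48 h and -0.03 at 24 h in *R. stylosa*. At 48 h the submerged libraries of *R. stylosa* all lay below its controls, while at 24 h they overlapped. With TMM scaling, edgeR's test against no change called the gene lower in *R. stylosa* at 48 h, with a log2 fold change of -0.66. At 24 h that of -0.25 was not called.

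Roisl.0046s1424 had the highest CPM of the 42 genes in *R. islandica* controls. It was counted at 11.8, 13.7 and 20.03 CPM in submerged *R. islandica* and 462, 321 and 294 CPM in its controls at 48 h, and at 31.1, 15.1 and 20.2 CPM under water and 203, 273 and 179 CPM in controls at 24 h. In *R. stylosa* it reached 171, 239 and 146 CPM under water and 154, 141 and 121 CPM in controls at 48 h, and 265, 159.9 and 184 CPM under water and 153, 296 and 109.9 CPM in controls at 24 h. The *R. islandica* groups lay far apart, whereas in *R. stylosa* submerged and control libraries overlapped at both times, with control replicate 2 at 24 h above all others. Without that library the 24 h ratio of *R. stylosa* left the band of 0.5 and the gene no longer met the rule.

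Roisl.0046s0506 was lower in *R. islandica* controls than in *R. stylosa* and nearly vanished from submerged *R. islandica*. Its levels were 0.0747, 0.325 and 0.668 CPM in submerged *R. islandica* and 28.4, 7.24 and 8.05 CPM in controls at 48 h, and 0.302, 0.202 and 0.191 CPM under water and 9.49, 10.9 and 5.46 CPM in controls at 24 h. *R. stylosa* held 47.9, 66.8 and 77.5 CPM under water and 45.8, 80.2 and 71.2 CPM in controls at 48 h, and 80.8, 77.4 and 114 CPM under water and 40.4, 98.7 and 81.8 CPM in controls at 24 h. Every *R. stylosa* library, submerged or not, was above every *R. islandica* control, and control replicate 1 of *R. islandica* at 48 h stood well above the other 5 controls of that species.

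3 further genes completed the 6 with the strongest repression at their weaker time point. Roisl.0210s1002 had 1.57, 2.83 and 5.901 CPM in submerged *R. islandica* and 50.8, 35.6 and 37.9 CPM in controls at 48 h, with log2 ratios of -3.41 at 48 h and -3.17 at 24 h. The *R. stylosa* libraries had 60.7, 57.4 and 49.5 CPM under water and 74.2, 76.8 and 78.7 CPM in controls at 48 h, and 74.7, 59.4 and 67.2 CPM under water and 66.03, 79.02 and 77.8 CPM in controls at 24 h. These libraries did not overlap at 48 h, and the fitted log2 fold changes of -0.74 at 48 h and -0.37 at 24 h were both called lower against no change. Roisl.0079s0076 had 10.4, 6.76 and 10.9 CPM in submerged *R. islandica* and 98.1, 71.1 and 75.2 CPM in controls at 48 h, and log2 ratios of -3.06 at 48 h and -2.99 at 24 h. Its *R. stylosa* libraries, at 18.5 to 34.1 CPM under water and 15.9 to 29.4 CPM in controls, all lay between the submerged and the control libraries of *R. islandica*. At 48 h the submerged libraries of *R. stylosa* all lay below the controls. The fitted log2 fold change of -0.68 at 48 h was called lower against no change, and that of -0.04 at 24 h was not called. Roisl.0074s0036 had few reads, with 0.485, 0.443 and 0.401 CPM in submerged *R. islandica* and 8.38, 5.02 and 7.32 CPM in controls at 48 h, and 0.356, 0.292 and 0.382 CPM under water and 6.97, 6.37 and 6.53 CPM in controls at 24 h. In *R. stylosa* it held 4.71 to 6.26 CPM under water and 5.95 to 7.39 CPM in controls, a range that overlapped that of the *R. islandica* controls. At 48 h its submerged *R. stylosa* libraries all lay below the controls, while at 24 h they overlapped. The fitted log2 fold changes of -0.69 at 48 h and -0.46 at 24 h were both called lower against no change. In these 3 genes the submerged and control libraries of *R. islandica* stayed apart by a wide margin at both times.

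**Figure D2:**
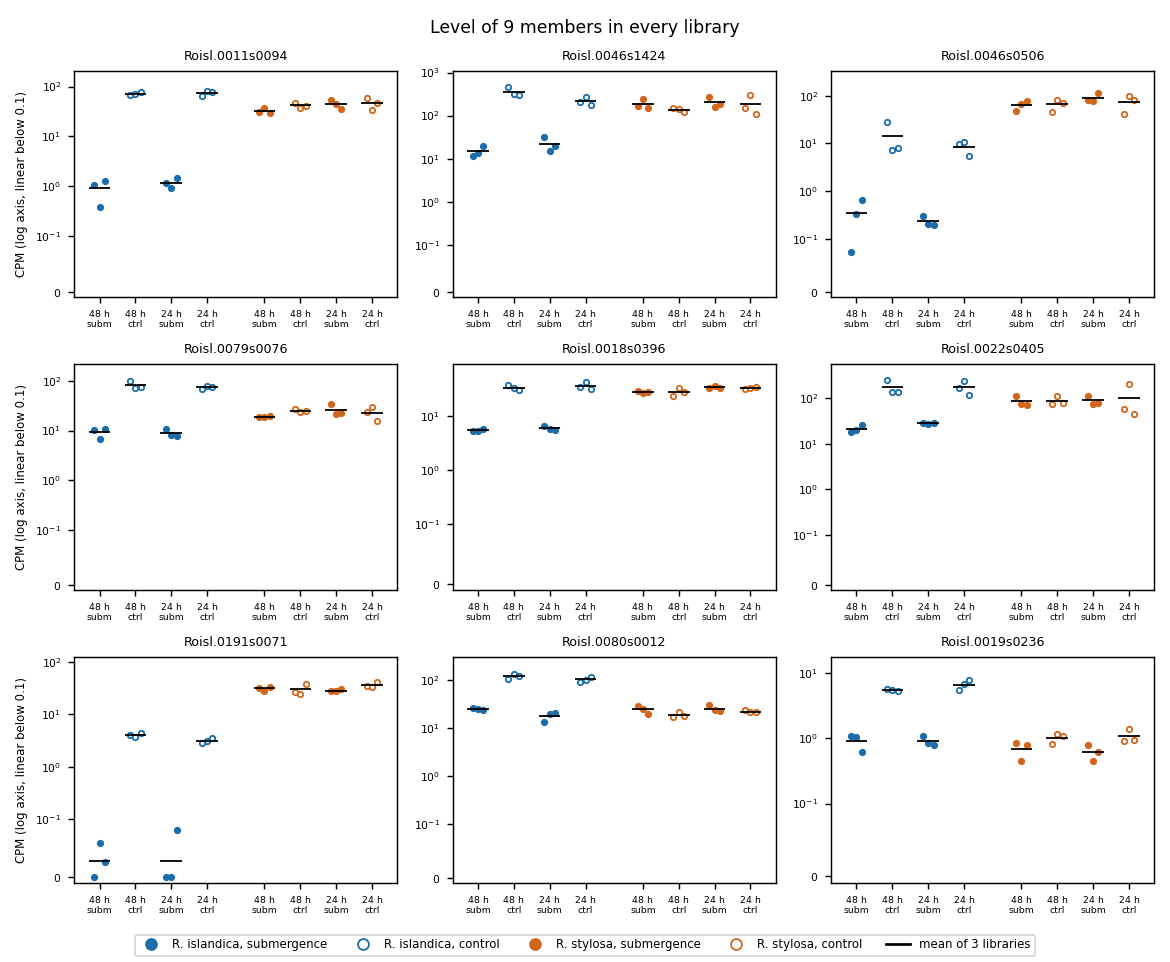
CPM (vertical axis, logarithmic above 0.1) of 9 of the 42 genes in each of the 24 libraries, with filled points for submergence, open points for controls, blue for *R. islandica*, orange for *R. stylosa* and a line at the mean of the 3 libraries of a group. In each panel the filled blue points lie below the open blue ones, and the orange points lie near the open blue ones in Roisl.0018s0396, above them in Roisl.0191s0071 and near the filled blue ones in Roisl.0080s0012.

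Among the genes with the highest CPM in *R. islandica* controls, a scale that also grows with the length of a gene, repression left an appreciable amount of transcript. Roisl.0022s0405 had 18.6, 20.105 and 26.04 CPM in submerged *R. islandica* and 257, 137 and 142 CPM in controls at 48 h, and 28.8, 26.8 and 29.5 CPM under water and 169, 244 and 119 CPM in controls at 24 h. Its 24 h controls of *R. stylosa* spread widely, at 59.7, 208 and 45.2 CPM, around the submerged values of 116, 76.2 and 80.4 CPM, and leaving out replicate 2 or replicate 3 of these controls removed it from the 42. Roisl.0080s0012 had 25.9, 24.5 and 23.4 CPM in submerged *R. islandica* and 102, 134 and 119 CPM in controls at 48 h. In *R. stylosa* it had 28.6, 24.6 and 19.4 CPM under water and 16.9, 20.9 and 17.6 CPM in controls at 48 h, so the submerged leaves of both species overlapped and only the *R. islandica* controls stood apart. Roisl.0018s0309 was counted at 18.3, 17.9 and 23.7 CPM in submerged and 124, 98.9 and 90.6 CPM in control *R. islandica* at 48 h, with *R. stylosa* at 102 to 195 CPM under water and 79.9 to 157 CPM in controls. Roisl.0208s0013 was counted at 20.9, 12.4 and 18.4 CPM in submerged and 82.7, 83.3 and 76.9 CPM in control *R. islandica* at 48 h, with *R. stylosa* at 29.8 to 46.1 CPM under water and 32.9 to 42.5 CPM in controls. In Roisl.0018s0309 the *R. stylosa* libraries overlapped the *R. islandica* controls or exceeded them, while in Roisl.0208s0013 they all lay between submerged and control *R. islandica*.

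Per effective length, the order of abundance changed. TPM, computed here, is counts divided by the deposited effective transcript length and scaled to a common total. The effective length is not the coding length, by which no order was computed. In TPM, Roisl.0115s0714 was the highest of the 42 genes in *R. islandica* controls, at a mean of 161.8 TPM, against 24.9 TPM in submerged *R. islandica*. Its mean in *R. stylosa* was 129 TPM under water and 127 TPM in controls. The median over the 42 genes was 1.32 TPM in submerged and 9.55 TPM in control *R. islandica*, and 11.02 TPM in submerged and 13.1 TPM in control *R. stylosa*.

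In *R. stylosa* the 42 genes scattered about 0 within the band that the rule allowed. Their log2 ratios ran between -0.49 and 0.43 at 48 h (median -0.09) and between -0.50 and 0.49 at 24 h (median -0.08). 20 genes were below 0 at both times, 10 above 0 at both times and 12 changed sign. Relative to the median of all genes that met the level conditions, the 42 genes stood at -0.32 at 48 h and -0.25 at 24 h in *R. stylosa*, and with TMM scaling at -0.32 at 48 h and -0.22 at 24 h. edgeR at the log2 threshold of 1 called 0 of 42 in either direction at 48 h, where 19.7% of all genes tested were called. At 24 h it called 0 of 42, where 12.7% were called. At either time 0 of the 42 had an unadjusted p under 0.05, and DESeq2 called 0. These counts use the contrasts that chose the genes, and the band of 0.5 left little room for a call. Against no change, a test added after the data had been seen, 18 were called lower at 48 h (32.7% of all genes tested) and 16 at 24 h (27.7%), 10 of them at both times. None of the 42 was called higher, beside 34% of all genes tested at 48 h and 28.9% at 24 h. The band was set on libraries scaled by their total, whereas this test used TMM scaling. TMM lowered the median ratio of all genes in *R. stylosa* by 0.27 at 48 h and 0.21 at 24 h. The direction of these calls is therefore not independent of the rule and is given as a description. With a median standard error of 0.174 on the log2 scale at both times, the word flat covers shifts of the size of the band, and it does not mean that these genes had equal levels in submerged and control *R. stylosa*.

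With libraries scaled by their total, the 4 genes with the smallest change in *R. stylosa* were Roisl.0018s0396, Roisl.0049s0082, Roisl.0079s0062 and Roisl.0115s0714, with largest absolute ratios between 0.061 and 0.092 on the log2 scale. With TMM scaling in edgeR, 3 of these were called lower at 48 h against no change, with log2 fold changes of -0.33 in Roisl.0018s0396, -0.39 in Roisl.0079s0062 and -0.39 in Roisl.0115s0714. Roisl.0214s0133 (-0.05 at 48 h and 0.02 at 24 h) and Roisl.0001s0023 (-0.03 at 48 h and 0.05 at 24 h) had the smallest fitted changes. Roisl.0018s0396 had 28.5, 25.8 and 26.9 CPM under water and 23.2, 32.7 and 27.7 CPM in controls of *R. stylosa* at 48 h, and 32.7, 35.9 and 33.2 CPM under water and 31.7, 31.9 and 33.9 CPM in controls at 24 h. In *R. islandica* it had 5.26, 5.17 and 5.69 CPM under water and 36.7, 31.9 and 29.96 CPM in controls at 48 h, and 6.41, 5.65 and 5.51 CPM under water and 33.9, 41.3 and 31.2 CPM in controls at 24 h. Both species thus had about the same level in air, the submerged and control libraries of *R. stylosa* overlapped, and the log2 ratio in *R. islandica* was -2.50 at both times. Roisl.0049s0082 had 5.84 to 9.45 CPM in submerged and 5.86 to 9.79 CPM in control *R. stylosa*, a range between the 2.69 to 4.27 CPM of submerged and the 25.4 to 34.2 CPM of control *R. islandica*. Roisl.0079s0062 had 3.06 to 4.41 CPM in submerged and 3.49 to 4.32 CPM in control *R. stylosa*. In *R. islandica* this gene had 1.39 to 3.42 CPM under water and 13.5 to 19.8 CPM in controls, so that *R. stylosa* overlapped only the submerged libraries. Roisl.0115s0714 had 24.99 to 40.3 CPM in submerged and 26.7 to 34.9 CPM in control *R. stylosa*, against 4.58 to 6.84 CPM in submerged and 33.1 to 47.9 CPM in control *R. islandica*.

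A flat response in *R. stylosa* was uncommon among genes with this repression in *R. islandica*. Without the condition on the change in *R. stylosa*, 457 genes met the rule. Of these, 139 were at -2 or lower at both times in *R. stylosa* too, 286 were at -1 or lower at both times, and 42 were flat at both times. Another 33 were flat only at 24 h, 15 only at 48 h, and 6 were at 0.5 or higher at both times. The median log2 ratio of the 457 genes in *R. stylosa* was -1.74 at 48 h and -1.33 at 24 h. The 139 genes repressed in both species had a median log2 ratio in *R. islandica* of -3.53 at 48 h and -3.18 at 24 h, beside -2.63 and -2.51 for the 42, and a median level of 0.953 CPM in submerged and 26.1 CPM in control *R. islandica*.

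**Figure D3:**
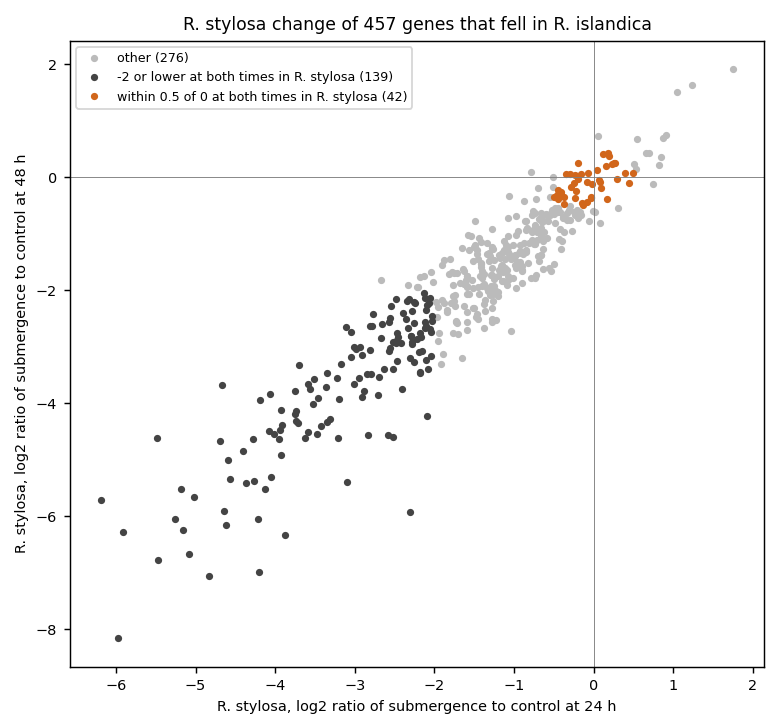
Log2 ratio of submergence to control in *R. stylosa* at 24 h (horizontal axis) and 48 h (vertical axis) of the 457 genes that met every condition of the rule except the one on the change in *R. stylosa*, with the 42 flat genes in orange, the 139 repressed in both species in dark grey and the other 276 in light grey. The orange points lie around 0 inside a cloud that continues on both sides of them, with a median of -1.74 at 48 h over all 457 genes and a highest value of 1.91.

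Close to the limits on the change under submergence, genes inside differed little from the nearest genes outside. The 2 weakest changes of *R. islandica* inside were -2.02 in Roisl.0115s0177 and -2.04 in Roisl.0213s0179, and the 2 nearest outside, Roisl.0018s0484 and Roisl.0021s0252, were just above the limit, at -1.999 and -1.9987. In *R. stylosa*, the largest absolute ratios inside were 0.498 in Roisl.0019s0236 and 0.490 in Roisl.0001s0474, and the nearest outside were 0.511 in both Roisl.0021s0160 and Roisl.0210s1549. The lowest *R. stylosa* control means inside were 1.02 CPM in Roisl.0019s0236 and 1.40 CPM in Roisl.0214s0517, and the nearest outside were 0.359 CPM in Roisl.0080s0322 and 0.228 CPM in Roisl.0046s0268. The upper limit on the level removed only Roisl.0209s0547 and Roisl.0213s0254, whose highest group means were 1198 and 8094 CPM. The limit on change between the time points removed none, and Roisl.0200s0015 came closest to it, with 0.90. That gene had 8.74, 8.53 and 7.504 CPM at 48 h and 4.69, 3.82 and 4.04 CPM at 24 h in submerged *R. islandica*, and the next largest absolute log2 ratio of 48 h over 24 h under water was 0.59, in Roisl.0001s0023. Over the 42 genes, 23 had a lower and 19 a higher mean at 48 h than at 24 h in submerged *R. islandica*.

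The rule set no condition on how the control level of *R. islandica* compares with that of *R. stylosa*, so this difference was tested, although the same control libraries entered the rule. Against a log2 fold change of 1, edgeR called 9 of the 42 genes higher in *R. islandica* controls at 48 h, beside 17.1% of all genes tested, and 9 at 24 h, beside 17.3%. It called 7 lower in *R. islandica* at 48 h, beside 13.4%, and 8 at 24 h, beside 14% of all genes tested. The shares of the 42 genes, 21.4% higher at both times and 16.7% lower at 48 h or 19% at 24 h, were close to these backgrounds. The genes tested were not restricted to those that met the conditions on levels, and the share among the latter was not computed for these calls. Against no change, the test added later, 19 genes were higher (35.6% of all genes tested) and 14 lower (34.5%) in *R. islandica* controls at 48 h, and 17 higher (36.4%) and 15 lower (34.4%) at 24 h. All 6 *R. stylosa* controls were above all 6 *R. islandica* controls in 12 of the 42 genes, beside 32.2% of the genes that met the level conditions, and below them in 15, beside 26.3%. The median log2 fold change of *R. islandica* over *R. stylosa* was 0.19 at both times over the 42 genes, and 0.00 at 48 h and 0.02 at 24 h over all genes tested. The same 9 genes were called higher and the same 7 lower at both times, Roisl.0214s0133 was called lower only at 24 h, and 25 genes were called at neither time, of which 8 had absolute fold changes under 0.5 on the log2 scale at both times.

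The 4 genes that were lowest in *R. islandica* controls relative to *R. stylosa* were Roisl.0191s0071, Roisl.0046s0506, Roisl.0022s0046 and Roisl.0004s0221. Roisl.0191s0071 was counted at 4.08, 3.72 and 4.48 CPM in *R. islandica* controls at 48 h, against 26.7, 24.8 and 38.1 CPM in *R. stylosa* controls, and at 2.84, 3.09 and 3.51 CPM in *R. islandica* controls at 24 h, against 34.4, 33.4 and 41.2 CPM in *R. stylosa* controls. Every control library of *R. islandica* was far below every library of *R. stylosa*, with a log2 fold change of -2.97 ± 0.196 at 48 h (SE; edgeR adjusted p = 2.08e-09) and -3.53 ± 0.198 at 24 h (SE; edgeR adjusted p = 7.59e-11). Under water it all but disappeared from *R. islandica*, with 3 counts over the 3 submerged libraries and 408 over the controls at 48 h, and 3 counts against 451 at 24 h. The ratio of submergence to control, as counts relative to the library totals, was 0.00751 at 48 h (exact 95% interval 0.00154 to 0.0221) and 0.00817 at 24 h (0.00168 to 0.0240), and these intervals cover counting error only. Libraries of *R. stylosa* held 31.5, 28.5 and 33.8 CPM under water and 26.7, 24.8 and 38.1 CPM in controls at 48 h, and 27.6, 27.6 and 30.01 CPM under water and 34.4, 33.4 and 41.2 CPM in controls at 24 h. These libraries overlapped at 48 h, whereas at 24 h the submerged ones all lay below the controls, with a fitted log2 fold change of -0.58 that was called against no change.

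Roisl.0046s0506 had a log2 fold change of *R. islandica* over *R. stylosa* controls of -2.30 ± 0.429 at 48 h (SE; edgeR adjusted p = 0.00245) and -3.10 ± 0.442 at 24 h (SE; edgeR adjusted p = 5.09e-05). Leaving out replicate 1 of the 48 h controls of *R. islandica*, the library that stood above its fellows, gave -3.17 at 48 h. Roisl.0022s0046 had 7.78, 6.38 and 4.51 CPM in *R. islandica* controls at 48 h, against 24.4, 25.4 and 25.7 CPM in *R. stylosa* controls, a log2 fold change of -2.12 ± 0.162 (SE; edgeR adjusted p = 4.63e-07). Under water it had 0.373, 0.886 and 0.561 CPM in *R. islandica* and 28.9, 26.5 and 27.04 CPM in *R. stylosa* at 48 h. In *R. stylosa* all 12 libraries of this gene lay between 24.3 and 29.4 CPM. Roisl.0004s0221 had 15.3, 21.5 and 23.5 CPM in *R. islandica* controls at 48 h, against 66.5, 69.6 and 88.4 CPM in *R. stylosa* controls, a log2 fold change of -1.99 ± 0.256 (SE; edgeR adjusted p = 0.000344). Under water it had 2.202, 2.45 and 3.15 CPM in *R. islandica* and 51.5, 64.3 and 60.5 CPM in *R. stylosa*. Roisl.0074s0787, Roisl.0019s0780 and Roisl.0091s0991 were the other 3 genes called lower at both times, with log2 fold changes between -1.83 and -1.39.

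At the other end stood Roisl.0214s0517, Roisl.0019s0236, Roisl.0080s0012 and Roisl.0082s0765. Roisl.0214s0517 was counted at 13.8, 6.86 and 8.53 CPM in *R. islandica* controls at 48 h, against 1.46, 2.505 and 1.46 CPM in *R. stylosa* controls, with a log2 fold change of 2.32 ± 0.276 (SE; edgeR adjusted p = 4.16e-05). Under water at 48 h it had 1.46, 1.09 and 1.39 CPM in *R. islandica* and 0.948, 0.852 and 1.82 CPM in *R. stylosa*, so these *R. islandica* libraries fell within the range of *R. stylosa*. At 24 h the submerged levels were 1.096, 0.652 and 0.928 CPM in *R. islandica* and 1.62, 1.085 and 1.18 CPM in *R. stylosa*. The fitted log2 fold change in *R. stylosa* was -0.86 at 48 h, called lower against no change, and -0.35 at 24 h, not called. It left the 42 genes in 3 leave-out runs and with TMM scaling. Roisl.0019s0236 had 5.73, 5.59 and 5.36 CPM in *R. islandica* controls at 48 h, against 0.809, 1.16 and 1.1 CPM in *R. stylosa* controls, a log2 fold change of 2.34 ± 0.241 (SE; edgeR adjusted p = 7.42e-06). In submerged leaves it had 1.08, 1.06 and 0.614 CPM in *R. islandica* and 0.839, 0.446 and 0.792 CPM in *R. stylosa*, and it stood nearest of the 42 genes to the limits on the change and on the control level in *R. stylosa*. edgeR fitted log2 fold changes of -0.84 at 48 h and -1.03 at 24 h for it in *R. stylosa*, both called lower against no change, whereas the rule used libraries scaled by their total and ratios with 0.5 CPM added. It left the 42 genes in 8 of the 24 leave-out runs and under all 5 other settings. Roisl.0080s0012, described above, had log2 fold changes of 2.58 ± 0.173 at 48 h (SE; edgeR adjusted p = 6.33e-09) and 2.22 ± 0.170 at 24 h (SE; edgeR adjusted p = 2.49e-07). Roisl.0082s0765 had 15.6, 13.95 and 13.3 CPM in *R. islandica* controls at 48 h, against 3.83, 2.397 and 2.74 CPM in *R. stylosa* controls, a log2 fold change of 2.15 ± 0.183 (SE; edgeR adjusted p = 1.54e-06). Its submerged levels were 1.72, 1.48 and 1.98 CPM in *R. islandica* and 2.68, 2.27 and 3.17 CPM in *R. stylosa*. Roisl.0091s0920, Roisl.0079s0062, Roisl.0082s0650, Roisl.0049s0082 and Roisl.0079s0076 were the other 5 genes called higher at both times, with log2 fold changes between 1.596 and 2.215.

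The levels of these genes under water follow in part from the rule, which bounded the change in both species, and they are given as a description. Of the 9 genes that were higher in *R. islandica* controls, the median level was 2.39 CPM in submerged and 16.0 CPM in control *R. islandica*, and 2.85 CPM in submerged and 3.40 CPM in control *R. stylosa*. Of the 7 that were lower, it was 0.534 CPM in submerged and 5.66 CPM in control *R. islandica*, and 29.8 CPM in submerged and 33.1 CPM in control *R. stylosa*. The log2 ratio in *R. islandica* had a median of -2.50 at 48 h and -2.72 at 24 h over the 9, and of -2.73 at 48 h and -2.31 at 24 h over the 7. Over the 42 genes, all 12 *R. stylosa* libraries were above all 6 *R. islandica* controls in 9 genes, against 24.8% of all genes that met the level conditions. They overlapped the *R. islandica* controls in 21 genes, lay wholly between submerged and control *R. islandica* in 5, and overlapped submerged *R. islandica* in 7. The gap between the species was smaller in submerged leaves than in controls in 9 genes. For the counts of 21, 5 and 7 genes and for the gap, the share over all genes was not computed. They are therefore not read as a trait of the 42 genes.

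**Figure D4:**
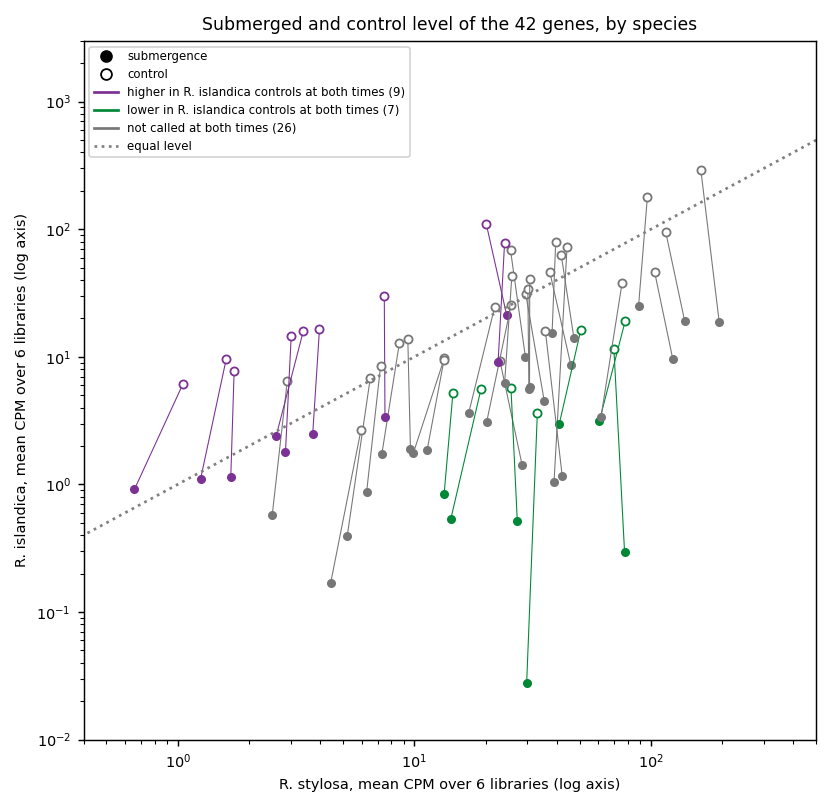
Mean CPM over 6 libraries in *R. stylosa* (horizontal axis, logarithmic) and *R. islandica* (vertical axis, logarithmic) of the 42 genes, with filled points for submergence, open points for controls and a line joining the points of a gene. Lines run steeply because the level differed between treatments in *R. islandica* and hardly in *R. stylosa*. Purple marks the 9 genes called higher and green the 7 called lower in *R. islandica* controls at both times, and the dotted line marks equal levels.

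No difference between the control harvests was called by edgeR. Between 48 h and 24 h controls edgeR called 0 of the 42 genes in either species, and 0 of all genes tested (0%), with 0 of the 42 at an unadjusted p under 0.05, beside 28 of all genes in *R. islandica* and 29 in *R. stylosa*. DESeq2 called 0 of the 42 as well, and 1 of all genes in *R. islandica*. Over the 42 genes, *R. islandica* had a median log2 fold change of 0.05 and *R. stylosa* one of -0.03. The spread between libraries of a group was compared with that of all genes whose group mean lay between the lowest and highest of the 42. Within this range the genes were not matched by level. In 24 h controls of *R. islandica* the median SD of log2 CPM was 0.169 over the 42 genes and 0.0993 over genes in the same range of levels, and the median of the 42 was the larger in all 8 groups. Roisl.0214s0896 had the widest spread there, at 0.777, 3.28 and 4.89 CPM in 24 h controls of *R. islandica*.

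The interaction of species and submergence combines contrasts that chose the genes, and its counts are given only for completeness. edgeR called 42 of 42 at 48 h, where 5.02% of all genes tested were called in this direction, and 40 of 42 at 24 h, where 4.04% were. The 2 genes not called at 24 h were Roisl.0004s0221 and Roisl.0091s0920. With the replicate number as a block, 42 of 42 were called. This block gave same-numbered libraries of both species a shared effect, although the species were grown separately. In 24 h controls the deviations of such libraries from their group means correlated between the species at only 0.006, -0.013 and 0.174.

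5 of the 42 genes shared their orthogroup with 1 other *R. islandica* gene, and 0 of these 5 partners met the rule. The other 37 genes (88.1%) were the only *R. islandica* gene of their orthogroup, beside 84.2% of the genes that met the level conditions. Roisl.0029s0009, the partner of Roisl.0001s0023, was the only partner that edgeR called lower in submerged *R. islandica*. It had 0, 0 and 0 counts in submerged *R. islandica* and 36, 22 and 14 counts in controls at 48 h, and 0, 0 and 2 counts under water and 25, 50 and 18 counts in controls at 24 h. In *R. stylosa* it had 29, 37 and 39 counts under water and 43, 55 and 43 counts in controls at 48 h, and 41, 56 and 46 counts under water and 51, 51 and 51 counts in controls at 24 h. Submerged *R. islandica* was separate from its controls at both times, while the libraries of *R. stylosa* differed little. With a floor of 3 counts over the 3 submerged libraries, it was at least 23.5-fold lower under water in *R. islandica* at 48 h, and at least 14.5-fold lower without submerged replicate 3, 15.4-fold without replicate 2 and 16.3-fold without control replicate 1. At 24 h the ratio of submergence to control was 0.0264 (exact 95% interval of counting error 0.00315 to 0.0981). It was not among the 42 genes. Its interaction of species and submergence was called by edgeR at 48 h (adjusted p = 0.000111) and at 24 h (adjusted p = 0.000542). Its partner was chosen by the contrasts behind this interaction, so the test is not fully independent of the choice. Its *R. islandica* control means of 0.758 CPM at 48 h and 0.617 CPM at 24 h, with the 0.5 CPM added, kept its log2 ratios at -1.33 and -1.11. Of the 24 deposited values of this gene, 37.5% were not whole numbers, as for Roisl.0001s0023, so part of the reads of the pair was shared between them by estimation. How much of this pattern comes from shared reads was not tested.

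Roisl.0001s0023 itself had 3.36, 3.37 and 3.74 CPM in submerged *R. islandica* and 40.1, 27.96 and 30.1 CPM in controls at 48 h, and 35.1, 37.4 and 33.02 CPM in submerged and 28.4, 32.8 and 27.2 CPM in control *R. stylosa*. The submerged *R. islandica* libraries were the only ones below 27.2 CPM at 48 h. The partners of 3 other members had log2 ratios closer to 0 in *R. islandica*. Roisl.0082s0764, next to Roisl.0082s0765 by its number, had mean levels of 0.775 CPM in submerged and 0.988 CPM in control *R. islandica* at 48 h, and log2 ratios of -0.22 at 48 h and -0.61 at 24 h. Roisl.0007s0503, the partner of Roisl.0115s0177, had 6.60 CPM in submerged and 8.54 CPM in control *R. islandica* at 48 h, and ratios of -0.35 at 48 h and -0.41 at 24 h. Roisl.0191s0066, which lies 5 numbers from its partner Roisl.0191s0071, had 4.37 CPM in submerged and 7.36 CPM in control *R. islandica* at 48 h, and ratios of -0.69 at 48 h and -0.50 at 24 h. At the log2 threshold of 1, edgeR called none of these 3 for submergence in either species or for the interaction. Against no change in *R. stylosa*, it called Roisl.0191s0066 lower under water, with log2 fold changes of -0.51 at 48 h and -0.67 at 24 h. The fifth partner, Roisl.0001s0475, had at most 4 counts in any library.

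**Figure D5:**
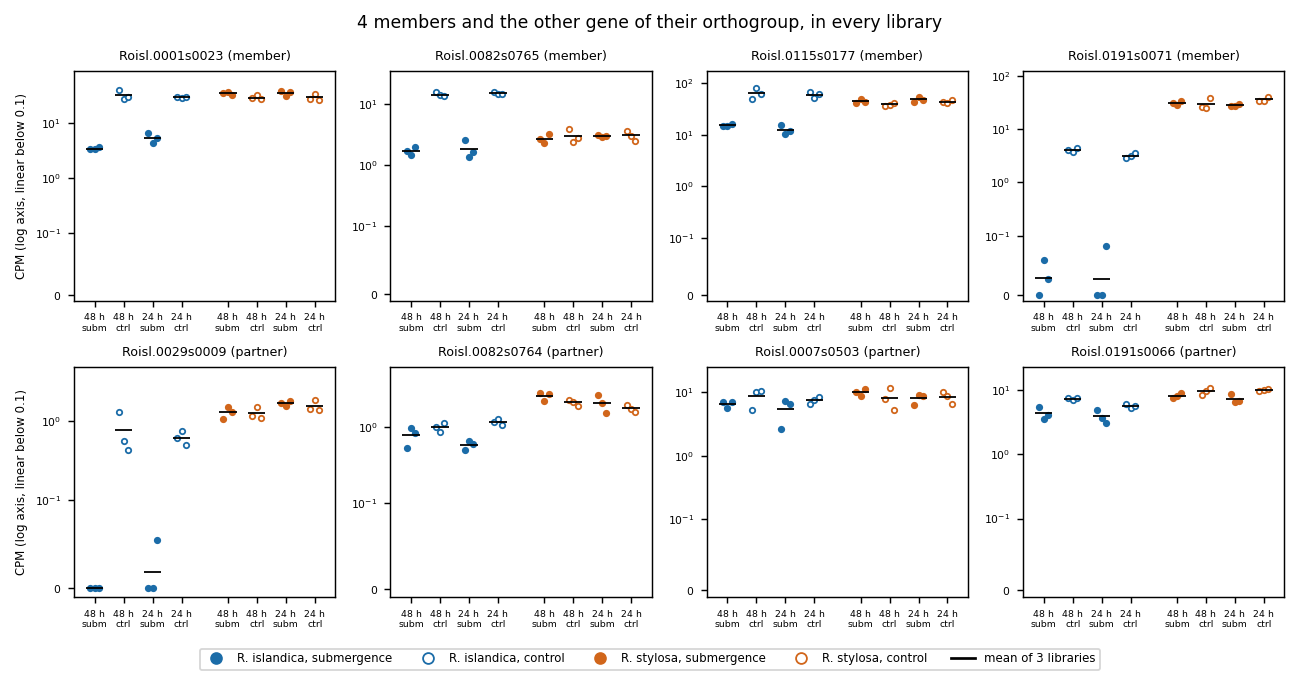
CPM (vertical axis, logarithmic above 0.1) in each of the 24 libraries of 4 of the 42 genes (upper row) and of the other *R. islandica* gene of their orthogroup (lower row), with filled points for submergence, open points for controls, blue for *R. islandica*, orange for *R. stylosa* and a line at the mean of 3 libraries. Only in the first column were both genes of a pair called lower in submerged *R. islandica*, where Roisl.0029s0009 had 0 counts at 48 h.

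The 42 genes were scattered over 27 scaffolds. No 2 of them lay within 5 identifier numbers of each other, and 3 pairs lay within 20, namely Roisl.0026s0075 with Roisl.0026s0081, Roisl.0079s0062 with Roisl.0079s0076, and Roisl.0004s0221 with Roisl.0004s0237. Roisl.0026s0075 had 6.35, 8.62 and 13.1 CPM in submerged and 134, 39.6 and 56.2 CPM in control *R. islandica* at 48 h, and Roisl.0026s0081 had 1.46, 1.68 and 1.95 CPM in submerged and 10.96, 8.39 and 10.5 CPM in control plants. Of the 83 genes next to a member by number, 55 met the level conditions, and 2 of these, Roisl.0046s1423 and Roisl.0191s0072, also fell to -2 or lower at both times in *R. islandica*, beside 2.91% of all genes that met the level conditions. Both fell in *R. stylosa* as well by this ratio, with -1.52 and -1.73 at 48 h. The other neighbours had no shared direction, with a median log2 ratio over all 83 in *R. islandica* of -0.04 at 48 h and -0.01 at 24 h. The identifiers give an order and not a distance in bases.

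In the features that the tables record, the 42 genes resembled other genes. Their coding lengths had a median of 1194 bases (207 to 3753), beside 1167 bases over the genes that met the level conditions and 1104 bases over the 139 genes repressed in both species. 41 of the 42 (97.6%) belonged to orthogroups that the tables mark as universal, beside 96.4%. All deposited values of 31 genes (73.8%) were whole numbers, beside 77.0%, and a value that is not whole means that kallisto divided reads between transcripts.

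3 of the 42 genes had 2 annotated transcripts. In Roisl.0024s0308 and Roisl.0115s0177 the 2 transcripts held equal counts in every library, so no balance between them can be read. In Roisl.0079s0076, whose transcripts have coding lengths of 3708 and 3705 bases, the species differed in which of them was counted. The first transcript held 78.0% ± 4.92 of the gene's counts in submerged and 80.04% ± 5.78 in control *R. islandica* at 48 h, against 24.6% ± 0.201 in submerged and 25.2% ± 0.184 in control *R. stylosa* (SD, n = 3 each). At 24 h its share was 82.3% ± 3.70 in submerged and 78.8% ± 1.65 in control *R. islandica*, against 24.9% ± 0.475 in submerged and 25.3% ± 0.528 in control *R. stylosa* (SD, n = 3 each). No library of *R. islandica* was below 73.0% and none of *R. stylosa* above 25.8%. Submerged and control libraries overlapped within each species, apart from *R. stylosa* at 48 h, where the submerged libraries held 24.4 to 24.8% and the controls 25.05 to 25.4%. Both transcripts fell in submerged *R. islandica*, with log2 ratios of -3.07 for the first and -2.72 for the second at 48 h. Since both species were counted against *R. islandica* transcripts that differ by 3 bases in length, a difference in use and a difference in sequence match cannot be told apart.

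How firmly a gene belonged to the 42 varied. Leaving out 1 library at a time gave 35 to 49 genes, of which 33 to 42 were among the 42, and 19 of the 42 were kept in all 24 such runs. The fewest remained without replicate 2 of the 24 h controls of *R. stylosa*, which removed Roisl.0046s1424, Roisl.0046s0506, Roisl.0022s0405 and 6 others. With TMM scaling the rule gave 40 genes, of which 24 were among the 42, and Roisl.0011s0094, Roisl.0210s1002, Roisl.0079s0076 and Roisl.0074s0036 were among the 18 lost. 12 genes met the rule in every leave-out run and under the 5 other settings tried.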

How the data were processed

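Polyadenylated RNA of young leaves was sequenced in 24 libraries, 3 for each species, treatment and time point. The authors checked the reads with FastQC 0.12.0, ran kallisto on all libraries with the transcripts of *R. islandica* as the target and deposited expected counts (estimated counts) per transcript, without normalization. Of the deposited values 11.8% were not whole. The columns carry a 1 or a 2, which was read as 24 h and 48 h. The rule for the 42 genes treats both times alike and does not depend on this reading. Isoforms were summed to 30646 genes, and sums were rounded for tests.

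Tests used edgeR 4.0.16 in R 4.3.3 with filterByExpr, TMM, estimateDisp, glmQLFit and glmTreat at a log2 fold change of 1, called at a Benjamini-Hochberg adjusted p under 0.05 over all genes tested. Comparisons within a species used its 12 libraries (*R. islandica*, 20609 genes tested; *R. stylosa*, 19886 genes tested), and those between species all 24 (22226 genes). The script was tested on simulated data. DESeq2 1.42.0, other normalizations and filters, other pseudocounts, libraries thinned to the smallest total, a replicate block and leaving out each library were alternatives. The SD of log2 CPM used a prior count of 2, and TPM used the deposited effective lengths. Counts cover between 24127592 and 66692318 reads per library. Molecular identifiers are not named in the sources used here, so intervals and floors cover counting error only.

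Same-numbered libraries were checked as pairs by correlating their deviations from the group means. All 3 pairs exceeded 0.1 for submergence and control of *R. islandica* at 24 h (0.403, 0.118 and 0.193) and between the control harvests of *R. stylosa* (0.314, 0.136 and 0.517), where the block changed no call among the 42 genes. The block moved the interaction at 24 h to 42 genes, against 40 without it. In that model, same-numbered libraries of both species shared a block.

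The 42 genes and the comparisons were chosen with earlier results of these data known. The genes described by name were the 6 with the lowest weaker log2 ratio in *R. islandica*, the 6 with the highest *R. islandica* control CPM, the 4 flattest in *R. stylosa*, the 4 highest and 4 lowest in *R. islandica* over *R. stylosa* controls, and those next to each limit. Orthogroup partners, pairs within 20 identifier numbers, Roisl.0214s0896, Roisl.0214s0133, Roisl.0001s0023 and the remaining genes called in controls were named after their values were seen. Lists of stomatal, cell cycle and light harvesting genes were not used, because the identifiers are not paired with gene names in the sources used here.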

Additional observations from a re-analysis of the deposited data

Results flagged for a closer look

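Roisl.0029s0009, the orthogroup partner of Roisl.0001s0023, differed between the species in its change under submergence by a test of the interaction itself, with an edgeR adjusted p of 0.000111 at 48 h and 0.000542 at 24 h. It had 0 counts under water and 72 in controls of *R. islandica* over the 3 libraries each at 48 h, and 105 counts under water and 141 in controls of *R. stylosa*. At 24 h it had 2 counts under water and 93 in controls of *R. islandica*, and 143 counts under water and 153 in controls of *R. stylosa*. Across all alternatives the adjusted p at 48 h was 1.33e-05 to 0.00176 and that at 24 h was 4.73e-05 to 0.00476, and all 3 submerged libraries of *R. islandica* were below all 3 controls at both times. The share of reads that this gene shares with Roisl.0001s0023 in each library was not tested. Since Roisl.0001s0023 was chosen by the contrasts behind the interaction, the test is not fully independent of that choice.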

How the results depend on the processing

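The number of genes that met the rule was 40 with TMM scaling (24 of them among the 42), 43 with medians of 3 libraries in place of means (31), 62 with a pseudocount of 0.1 CPM (40), 35 with one of 1 CPM (31) and 42 with thinned libraries (40). The median log2 ratio over the 42 genes in *R. islandica* at 48 h was -2.92 with a pseudocount of 0.1 CPM and -2.36 with 1 CPM. In *R. stylosa* at 48 h it was -0.36 with TMM scaling. These medians cover the 42 genes whether or not they met the rule in that setting.

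When the log2 threshold of 1 was applied after a test against no change, 1 of the 42 genes was called lower in *R. stylosa* at 24 h and 11 were lower in *R. islandica* controls than in *R. stylosa* controls at 48 h. Against no change, a test added after the data had been seen, 18 genes were called lower under water in *R. stylosa* at 48 h and 16 at 24 h. By the same test 19 genes were higher and 14 lower in *R. islandica* controls than in *R. stylosa* controls at 48 h, and 17 were higher and 15 lower at 24 h. Leaving out 1 library gave 9 to 10 genes higher and 7 to 8 lower in *R. islandica* controls at 48 h, 8 to 11 higher and 8 to 9 lower at 24 h, and 39 to 42 genes called for the interaction at 48 h and 36 to 40 at 24 h. DESeq2 called 39 for the interaction at 48 h and 35 at 24 h. In the fit with a replicate block, 9 genes were higher and 7 lower in *R. islandica* controls at 48 h, 9 higher and 8 lower at 24 h, and the interaction was called in 42 genes at both times, and the block changed no other count among the 42 genes.

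Among genes described by name, Roisl.0046s1424 went to -0.000329 in *R. islandica* over *R. stylosa* controls at 24 h without *R. stylosa* 24 h control replicate 3, beside 0.24 with it and a highest value of 0.74 without replicate 2 of these controls, and was called in none of these. Roisl.0082s0650 lost its 24 h call with DESeq2 (2.09) and without *R. stylosa* 24 h control replicate 3 (1.68). Roisl.0214s0133 lost its 24 h call with DESeq2 (-1.43) and gained one at 48 h without *R. islandica* 48 h control replicate 1 (-1.35). With 3 libraries a group, a change within the band of *R. stylosa* is limited by a median standard error of 0.174.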
